A study of Mus musculus with 13 samples.

Results

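The effect of the Tmem184b gene trap on hippocampal gene expression was compared between 5-month-old and 15-month-old mice, as the mutant minus wild type difference at 15 months minus the same difference at 5 months. All 13 libraries of the series enter this contrast: 4 wild types (C57BL/6) and 3 homozygous mutants (GT/GT) at 5 months, and 3 wild types and 3 mutants at 15 months, each library being the hippocampal RNA of 1 mouse, so that p values measure the spread between these mice. The trap is a germline insertion on the C57BL/6 background, present in all cells of the mutants. The wild types were not necessarily littermates of the mutants. The paper describes the 15-month libraries as additional sequencing, so that age and sequencing round cannot be told apart in the contrast. The values are normalized counts, which the authors scaled separately for each age, with sums of 28086279 to 32383546 per library that do not give the depth, so that levels are compared only between mice of 1 age and the contrast subtracts 1 within-age difference from the other. Genes with a mean of at least 10 normalized counts at both ages were tested, which were 15340 of 25025 genes. A positive difference means that the mutant stood higher relative to wild type at 15 months than at 5 months, on the log2(normalized count + 1) scale, which understates the change of low genes.

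TMEM184B is a membrane protein with several membrane passes that is expressed in hippocampal neurons. Immediate early genes are those that neurons and glia transcribe within minutes of a stimulus and without new protein synthesis. Neuronal firing raises calcium and cAMP, and kinases then activate the transcription factor CREB, which binds the cAMP response element in promoters such as that of Fos. In the hippocampus these transcripts mark recently active cells and take part in the consolidation of memory. Whole tissue was sequenced, so that fewer active cells and less RNA per active cell cannot be told apart.

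The promoters of 4 of the 9 called immediate early genes are printed, and all 9 genes were higher in the contrast. The 4 printed promoters all hold the core marked below. Each runs from 250 bases before to 50 bases after the first start listed by RefSeq on GRCm38.p6, and capitals mark the core of the cAMP response element, TGACG on either strand. Fos lies on the plus strand (chr12:85473640-85473939), and Npas4 (chr19:4989922-4990221), Junb (chr8:84978699-84978998) and Dusp1 (chr17:26508423-26508722) lie on the minus strand.
Fos: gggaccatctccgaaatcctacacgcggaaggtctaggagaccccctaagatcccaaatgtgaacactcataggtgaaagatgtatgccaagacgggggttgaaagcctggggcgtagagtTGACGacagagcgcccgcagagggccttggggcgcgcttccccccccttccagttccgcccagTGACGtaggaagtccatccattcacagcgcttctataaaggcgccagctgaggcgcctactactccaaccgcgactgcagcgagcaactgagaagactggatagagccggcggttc
Npas4: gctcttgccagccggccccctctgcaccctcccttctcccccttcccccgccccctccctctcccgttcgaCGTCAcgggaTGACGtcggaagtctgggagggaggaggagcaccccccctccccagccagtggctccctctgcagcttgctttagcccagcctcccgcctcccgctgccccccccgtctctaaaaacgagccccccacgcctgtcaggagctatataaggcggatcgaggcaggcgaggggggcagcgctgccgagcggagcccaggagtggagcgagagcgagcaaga
Junb: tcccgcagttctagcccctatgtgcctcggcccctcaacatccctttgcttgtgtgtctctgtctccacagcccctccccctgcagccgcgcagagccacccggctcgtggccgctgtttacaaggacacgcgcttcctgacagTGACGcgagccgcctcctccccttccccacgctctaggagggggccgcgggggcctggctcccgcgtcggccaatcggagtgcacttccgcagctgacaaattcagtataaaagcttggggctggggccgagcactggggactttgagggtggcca
Dusp1: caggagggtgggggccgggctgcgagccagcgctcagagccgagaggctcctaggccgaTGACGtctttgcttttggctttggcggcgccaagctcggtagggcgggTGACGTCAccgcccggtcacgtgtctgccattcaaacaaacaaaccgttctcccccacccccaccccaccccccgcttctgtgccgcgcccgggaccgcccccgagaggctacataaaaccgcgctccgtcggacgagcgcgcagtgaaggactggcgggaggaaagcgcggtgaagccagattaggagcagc
Fos, Npas4 and Junb hold the core only, and Dusp1 holds the core and the full palindrome TGACGTCA, inside which the core matches on both strands. The core was in the promoters of 7 of the 9 called immediate early genes and of 21 of the 36 immediate early genes matched in RefSeq, against 30.2% of the 12036 matched promoters of tested genes. The called members without it were Gadd45g and Gadd45b, whose promoters are not printed. The full element was in 2 of the 9 and in 3.17% of the 12036. A match of letters is a description of the window and not of binding.

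Tmem184b itself (chromosome 15, 79360684 to 79403569 on GRCm38) checked the labels at both ages. Its normalized count was 2415, 2329, 2356 and 2475 in the 5-month wild types, 45, 43.2 and 31.3 in the 5-month mutants, 2346, 2346 and 2413 in the 15-month wild types and 36.6, 29.4 and 57.8 in the 15-month mutants. Every mutant was far below every wild type. The mutant minus wild type difference was -5.89 at 5 months and -5.86 at 15 months, and the change of 0.027 (SE 0.26) between ages did not pass the test (adjusted p = 0.969).

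Xist, the X-inactivation transcript of females, was above 1000 normalized counts (2565 to 12241) in 6 libraries and at most 17.9 in the other 7, where the Y-linked gene Ddx3y was at 460 or more. The 6 were replicate 1 of the wild types and of the mutants at 5 months, all 3 wild types at 15 months and replicate 1 of the mutants at 15 months. The labels do not give sex. The study's methods state that a male 15-month wild type was left out for poor quality. They give unequal numbers of females and males in the groups, so that sex and genotype are not balanced over the contrast. The log2 Xist level was therefore added as a covariate. Of the 48 called genes named by rule in what follows, 7 passed with it (Npas4, Gadd45g, Homer2, Sv2c, Malat1, Hsph1 and Sorl1) and 41 did not, at adjusted p values of 0.0535 to 0.118, while all 48 kept their direction. Mutant replicate 1 at 5 months and mutant replicate 3 at 15 months stood apart from their groups, with limma weights of 0.266 and 0.410 where the other libraries had 0.711 to 1.93. The latter also had summed haemoglobin and Alas2 levels of 189306 normalized counts, against 12782 to 41451 in the other 12 libraries.

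Of 15340 genes, 268 had a genotype effect that differed between 5 and 15 months (1.75%, limma, Benjamini-Hochberg adjusted p under 0.05), with 3237 at an unadjusted p under 0.05. Of the 268, 94 (0.613% of genes tested) were higher and 174 (1.13%) lower at 15 months. The effect was of opposite sign at 5 and 15 months in 263 of the 268, including all 94 of the higher genes, compared with 46.6% of all genes tested. The calls were made on the difference of these same effects, which favours opposite signs, so that this share does not test a reversal. The median effect of the higher genes was -0.49 at 5 months and 0.29 at 15 months, and that of the lower genes was 0.30 at 5 months and -0.40 at 15 months. The larger part of the difference lay at 5 months in 64 of the 94 higher genes and at 15 months in 117 of the 174 lower genes. In the same fit, 725 genes (4.73%) passed at 5 months and 189 (1.23%) at 15 months, and 3 of the 94 higher and 7 of the 174 lower genes passed at both ages. At both ages the genotypes did not overlap, in opposite directions, in 126 of the 268 genes, a pattern found in 295 of all 15340 genes tested (1.92%). The count of 126 also comes from the values that made the calls.

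**Figure D1:**
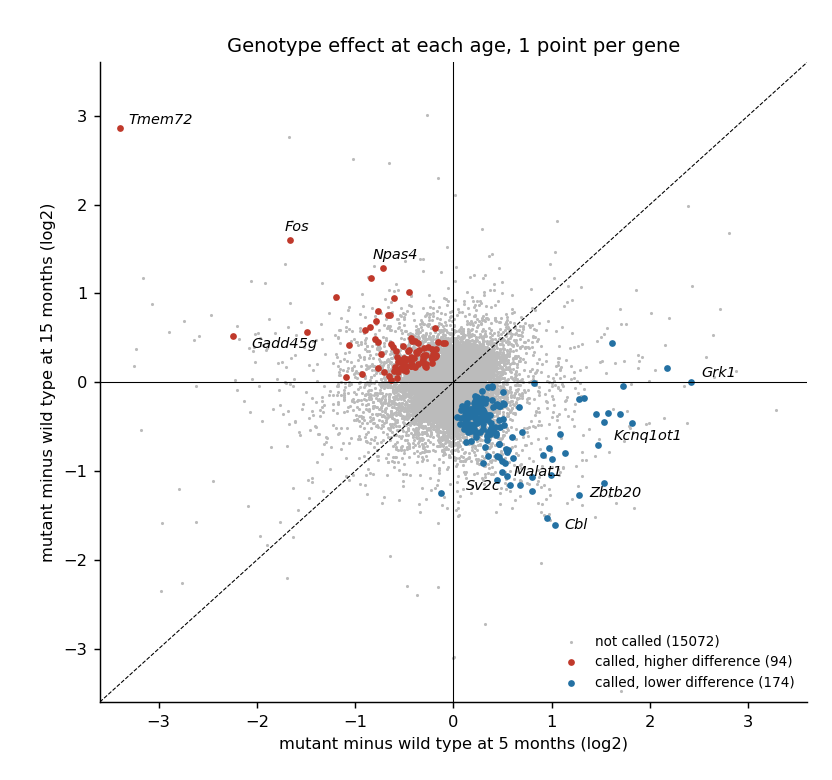
The mutant minus wild type difference at 5 months (x axis, log2) is plotted against that at 15 months (y axis, log2) for the tested genes, with the dashed line marking equal effects and 26 genes outside the axes of 3.6. The 94 called genes of higher difference (red) sit to the upper left of the zero lines, and 169 of the 174 called genes of lower difference (blue) sit to the lower right.

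Rescaling each table by trimmed means (TMM) gave 126 higher and 148 lower calls. The number of calls depended on single mice. It was 249, 108, 45 and 116 without wild type replicates 1 to 4 at 5 months, 2111, 95 and 53 without mutant replicates 1 to 3 at 5 months, 34, 55 and 35 without wild type replicates 1 to 3 at 15 months, and 55, 211 and 552 without mutant replicates 1 to 3 at 15 months. Without mutant replicate 1 at 5 months all 268 genes were still called, and without mutant replicate 3 at 15 months 246 of them were. With the Xist covariate 29 genes passed, 28 of them among the 268, while all 268 kept their sign and their difference was a median of 1.03 times the value without it. In the 6 libraries with Xist alone, all 268 had the same sign, with medians of 0.66 for the higher and -0.59 for the lower genes. These libraries are part of the data that made the calls and hold 1 mouse in 3 of the 4 groups. No test was made, and the shared sign is not separate support for the calls. No 15-month wild type lacked Xist, so the contrast cannot be formed among the other libraries.

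Immediate early genes had the largest median shift of the 19 gene lists examined. Of 45 on the list, all tested, 9 were called and all 9 were higher (20% against 0.613% of all genes tested), namely Gadd45g, Npas4, Gadd45b, Egr4, Junb, Fos, Dusp1, Btg2 and Ccn1. The median over the 45 was 0.64, against 0.017 over all genes, and 33 of the 45 were above 0. Without mutant replicate 3 at 15 months the median was 0.32, and without any other 1 mouse it was 0.59 to 0.85. Their median effect was -0.24 at 5 months and 0.42 at 15 months. At 5 months 6 members passed and were lower in mutants (4.73% of all genes passed in either direction). At 15 months 6 passed and were higher (1.23% of all genes passed in either direction).

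Gadd45g, a growth arrest and DNA damage inducible gene that activity induces in neurons, had the lowest p of all genes in the contrast. Its normalized count was 1205, 1102, 1248 and 1204 in the 5-month wild types, 608, 606 and 499 in the 5-month mutants, 737, 844 and 775 in the 15-month wild types and 1033, 1135 and 982 in the 15-month mutants (replicates in order, here and in what follows). The mutants were all below the wild types at 5 months and all above them at 15 months. The difference was 1.48 (SE 0.13, adjusted p = 0.000218), made up of -1.06 at 5 months and 0.42 at 15 months. It stayed between 1.39 and 1.53 with each mouse left out, and was 1.51 with the Xist covariate (adjusted p = 0.0026).

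Npas4, a transcription factor induced in neurons by calcium entry, gave 464, 517, 468 and 610 in the 5-month wild types, 376, 269 and 295 in the 5-month mutants, 273, 243 and 353 in the 15-month wild types and 879, 560 and 697 in the 15-month mutants. Again the genotypes separated at both ages, in opposite directions. The difference was 2.01 (SE 0.25, adjusted p = 0.00553), and 2.17 with the Xist covariate (adjusted p = 0.0184). Gadd45b, of the same family as Gadd45g, had 527, 584, 618 and 580 in the 5-month wild types, 396, 443 and 448 in the 5-month mutants, 439, 433 and 495 in the 15-month wild types and 722, 643 and 577 in the 15-month mutants. Its difference of 0.93 (SE 0.15, adjusted p = 0.0131) was called with any mouse left out, while the covariate brought it to 0.89 (adjusted p = 0.0535).

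Egr4, a zinc finger transcription factor, had 1519, 2010, 2098 and 2725 in the 5-month wild types, 1464, 1177 and 1294 in the 5-month mutants, 1146, 1313 and 1212 in the 15-month wild types and 2001, 1795 and 2473 in the 15-month mutants. Wild type replicate 1 at 5 months, the one with Xist, lay just above the highest mutant. The difference was 1.41 (SE 0.23, adjusted p = 0.0131; 0.0562 with the covariate). Junb, a subunit of the AP-1 factor, had 2921, 3985, 4143 and 5400 in the 5-month wild types, 2888, 2207 and 2890 in the 5-month mutants, 2265, 2266 and 2566 in the 15-month wild types and 4241, 3802 and 5882 in the 15-month mutants. Its difference was 1.55 (SE 0.26, adjusted p = 0.0135), and it was not called without wild type replicate 1 at 15 months or with the covariate (adjusted p = 0.0599). The annotated span of Junb overlaps Prdx2 on the other strand, and whether the counting used strand is not given in the sources used here. Of the genes below, Dusp1, Zbtb20, A630089N07Rik, Srsf2 and Bace1 also overlap a tested gene on the other strand. Zbtb20 (with BC002163), Pcdhb2 and Pcdhb19 overlap a tested gene on the same strand.

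Fos, the AP-1 subunit most used as a marker of recent activity, had the highest difference among called genes with a mean of at least 100 at both ages. It had 201, 635, 627 and 730 normalized counts in the 5-month wild types, 158, 96.5 and 241 in the 5-month mutants, 144, 141 and 141 in the 15-month wild types and 397, 242 and 846 in the 15-month mutants. At 5 months wild type replicate 1 fell within the range of the mutants, and at 15 months every mutant was above every wild type. The difference was 3.27 (SE 0.65, adjusted p = 0.0291), with -1.67 at 5 months and 1.60 at 15 months. It was called in 5 of the 13 fits with a mouse left out (range 2.79 to 3.70), and was 2.54 with the Xist covariate (adjusted p = 0.0808).

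Dusp1, a phosphatase that turns off MAP kinases, had 580, 1232, 1141 and 1357 in the 5-month wild types, 590, 512 and 623 in the 5-month mutants, 474, 518 and 414 in the 15-month wild types and 1117, 653 and 1597 in the 15-month mutants. Btg2, an antiproliferative gene, had 568, 1006, 941 and 1102 in the 5-month wild types, 611, 465 and 480 in the 5-month mutants, 529, 357 and 482 in the 15-month wild types and 812, 551 and 1083 in the 15-month mutants. Ccn1, a secreted matrix protein, had 149, 427, 322 and 417 in the 5-month wild types, 151, 130 and 117 in the 5-month mutants, 127, 147 and 117 in the 15-month wild types and 215, 170 and 449 in the 15-month mutants. In all 3 genes, 5-month wild type replicate 1 lay within the range of the mutants, the other 3 wild types lay above it, and the 15-month mutants all lay above the 15-month wild types. The differences were 2.01 (SE 0.41, adjusted p = 0.0325), 1.57 (SE 0.35, adjusted p = 0.0412) and 2.16 (SE 0.50, adjusted p = 0.0446), and each was called in 4 of the 13 fits with a mouse left out. With the covariate they were 1.63, 1.35 and 1.59, and none passed.

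**Figure D2:**
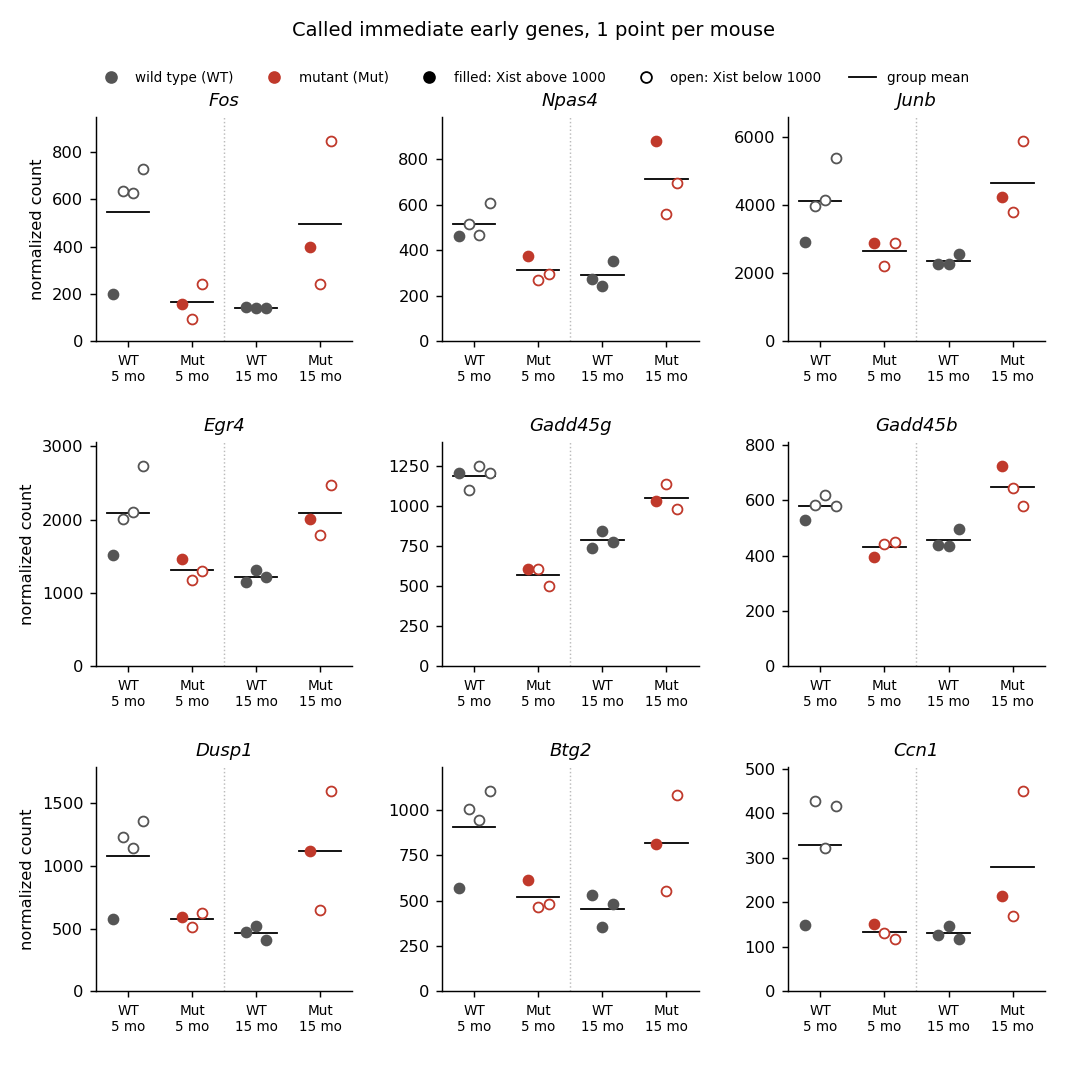
Normalized counts (y axis, from 0) of the 9 called immediate early genes in each mouse, by genotype (WT, wild type; Mut, mutant) and age in months, with bars at the group means and filled points for libraries with Xist above 1000. Mutants sit low at 5 months and high at 15 months, and in Fos, Dusp1, Btg2 and Ccn1 the filled 5-month wild type sits among the mutants.

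The members that did not pass included other well-known activity genes. Arc, a synaptic capsid-like protein, had a difference of 1.70 (adjusted p = 0.0503), Egr2 of 3.46 (adjusted p = 0.0603), Nr4a1 of 1.66 (adjusted p = 0.0601), Ier2 of 1.41 (adjusted p = 0.0528) and Fosb of 1.34 (adjusted p = 0.0868). Others of the list were near 0, with 0.046 for Nr4a2, -0.04 for Homer1 and -0.046 for Plk2, and Bdnf stood at -0.29 (adjusted p = 0.255). All of these uncalled members were named after their values were seen. Over the 9 called members, the mean deviation from the average of its age was -0.17 in wild type replicate 1 at 5 months and 0.47 to 0.70 in the other 3 wild types, on the log2 scale. It was -0.39, -0.67 and -0.46 in the 5-month mutants, -0.48, -0.49 and -0.44 in the 15-month wild types and 0.48, 0.10 and 0.83 in the 15-month mutants, so that mutant replicate 3 was the highest of its group and replicate 2 the lowest. With the covariate 2 members passed, Gadd45g and Npas4, and the list's median was 0.47. Between 4 members (without wild type replicate 1 at 15 months) and 19 (without mutant replicate 1 at 5 months) passed with a mouse left out. The count was 14 without wild type replicate 1 at 5 months or mutant replicate 2 at 15 months, 10 without mutant replicate 3 at 15 months, 6 without mutant replicate 3 at 5 months and 5 without any of the other libraries. In the libraries with Xist alone, the list's median was 0.17 and 29 of 45 members were above 0, with 1.82 for Fos, 1.92 for Npas4 and 1.38 for Gadd45g.

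Beside the immediate early genes, the 12 highest differences among called genes with a mean of at least 100 at both ages held Ccdc114, Col6a1, Hectd2os and Sec1. Ccdc114, a docking protein of the outer dynein arms of motile cilia, had 196, 154, 221 and 248 in the 5-month wild types, 130, 118 and 89.8 in the 5-month mutants, 102, 96.7 and 153 in the 15-month wild types and 157, 163 and 218 in the 15-month mutants. Col6a1, a chain of the matrix protein collagen VI, had 1475, 1689, 1912 and 1032 in the 5-month wild types, 1394, 904 and 1025 in the 5-month mutants, 865, 678 and 1330 in the 15-month wild types and 2120, 1657 and 1849 in the 15-month mutants. For Ccdc114 the genotypes separated at both ages, and for Col6a1 at 15 months only. The differences were 1.48 (SE 0.31, adjusted p = 0.0359) and 1.47 (SE 0.33, adjusted p = 0.0432). Hectd2os, antisense to Hectd2, and Sec1, a fucosyltransferase gene that overlaps Ntn5, had differences of 1.42 (adjusted p = 0.0271) and 1.28 (adjusted p = 0.0441). Both overlap a gene on the other strand, from which their reads may not be told apart.

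Among the 12 lowest differences of the same kind, 5 had the larger effect at 15 months or effects of like size at both ages, and 7 had most of the change at 5 months. Cbl, a ubiquitin ligase that limits receptor tyrosine kinases, had 140, 81.6, 37.0 and 98.8 in the 5-month wild types, 106, 178 and 240 in the 5-month mutants, 391, 400 and 445 in the 15-month wild types and 134, 212 and 85.2 in the 15-month mutants. Zbtb20, a zinc finger repressor that specifies CA1 pyramidal neurons, had 138, 49.3, 52.5 and 87.5 in the 5-month wild types, 125, 196 and 252 in the 5-month mutants, 272, 225 and 331 in the 15-month wild types and 113, 155 and 81.3 in the 15-month mutants. In both genes the 15-month mutants all lay below the wild types, while at 5 months mutant replicate 1 lay within the range of the wild types. The differences were -2.64 (SE 0.57, adjusted p = 0.0403) and -2.55 (SE 0.49, adjusted p = 0.0271), and with the Xist covariate -2.45 (adjusted p = 0.0884) and -2.30 (adjusted p = 0.0761). Foxo3, a forkhead factor of insulin signaling, Arid5b, a DNA-binding cofactor, and the long noncoding RNA Oip5os1 were also lower in every 15-month mutant than in every 15-month wild type, with differences of -1.86 (adjusted p = 0.0435), -1.87 (adjusted p = 0.0325) and -2.02 (adjusted p = 0.0412).

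Grk1, the kinase that desensitizes rhodopsin, had 208, 102, 117 and 120 in the 5-month wild types, 451, 534 and 1467 in the 5-month mutants, 298, 268 and 285 in the 15-month wild types and 301, 386 and 199 in the 15-month mutants. Kcnq1ot1, an imprinted long noncoding RNA antisense to Kcnq1, had 1290, 843, 675 and 816 in the 5-month wild types, 1848, 1886 and 4745 in the 5-month mutants, 1795, 1838 and 2327 in the 15-month wild types and 1435, 1537 and 1357 in the 15-month mutants. In both, mutant replicate 3 at 5 months was the highest library by far. The differences were -2.42 (SE 0.50, adjusted p = 0.0344) and -1.99 (SE 0.40, adjusted p = 0.0297), with effects of 2.42 and 1.53 at 5 months and 0.007 and -0.45 at 15 months. The same library was the highest at 5 months in A630089N07Rik, Gm17644, Cntnap5c, the pseudogene Olfr856-ps1 and 4930470H14Rik, whose differences ran from -1.91 to -2.28 (adjusted p = 0.0264 to 0.0450). After correction for gene length and GC content the difference of Kcnq1ot1, whose annotated transcript is 93092 bases long, was -0.71 (adjusted p = 0.13).

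**Figure D3:**
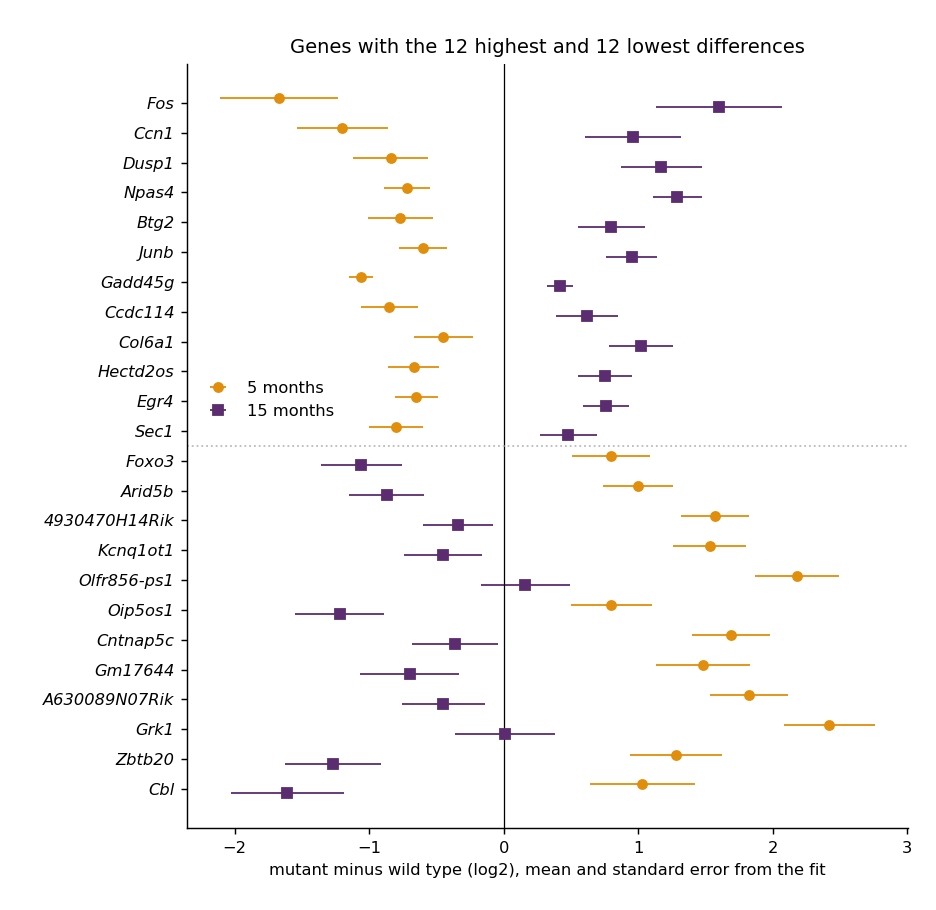
The mutant minus wild type difference at 5 months (circles) and 15 months (squares), as log2 means with standard errors from the fit, for the genes with the 12 highest and 12 lowest differences between ages. The upper 12 are below 0 at 5 months and above 0 at 15 months, and the lower 12 are above 0 at 5 months.

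Synaptic genes had mostly negative differences. Of 51 synaptic scaffold and adhesion genes, 4 were called and all 4 were lower (Cyfip2, Homer2, Dlgap2 and Nlgn3), against 1.13% of all genes, and 42 of the 51 were below 0, with a median of -0.29. The list's median effect was 0.12 at 5 months and -0.19 at 15 months. At 5 months 9 members passed as higher in mutants and 0 as lower (4.73% of all genes passed in either direction). At 15 months 3 passed as higher and 3 as lower (1.23% of all genes). Homer2, a scaffold that links metabotropic glutamate receptors, had 1295, 1197, 1089 and 1205 in the 5-month wild types, 1295, 1597 and 1797 in the 5-month mutants, 1996, 2014 and 1956 in the 15-month wild types and 1252, 1577 and 1300 in the 15-month mutants. Cyfip2, a subunit of the WAVE complex that regulates actin, had 16645, 15838, 15108 and 15980 in the 5-month wild types, 19105, 18663 and 19588 in the 5-month mutants, 22294, 20521 and 22237 in the 15-month wild types and 17206, 18184 and 18711 in the 15-month mutants. For Cyfip2 the mutants lay above the wild types at 5 months and below them at 15 months without overlap, and for Homer2 also, although at 5 months mutant replicate 1 and wild type replicate 1 were equal to the nearest count. Cyfip2 overlaps Fndc9 on the other strand. The differences were -0.91 (SE 0.16, adjusted p = 0.015) for Homer2 and -0.53 (SE 0.089, adjusted p = 0.0135) for Cyfip2. Dlgap2, a partner of the scaffold PSD-95, and the adhesion protein Nlgn3 had -0.79 (adjusted p = 0.0264) and -0.52 (adjusted p = 0.0450). The count was 0 without wild type replicate 1 at 15 months, 1 without wild type replicate 3 at 15 months, 2 without wild type replicate 3 or mutant replicate 2 at 5 months or mutant replicate 1 at 15 months, and 24 without mutant replicate 1 at 5 months. It was 5 without mutant replicate 3 at 15 months and 3 or 4 without any of the others. With the Xist covariate 1 passed (Homer2, -1, adjusted p = 0.0471), and after the length and GC correction 2 passed and the median was -0.16.

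Among genes of the synaptic vesicle, receptors, channels and protocadherins 8 were called, all of them lower, against 1.13% of all genes tested. Of 52 genes of presynaptic release 1 was called (1.92%, near that of all genes), Sv2c, a vesicle glycoprotein, with 93.7, 82.7, 72.2 and 103 in the 5-month wild types, 131, 156 and 134 in the 5-month mutants, 312, 206 and 226 in the 15-month wild types and 105, 133 and 91.2 in the 15-month mutants. Its genotypes separated at both ages, and its difference was -1.84 (SE 0.27, adjusted p = 0.0104; -1.84 with the covariate, adjusted p = 0.0444). Of 39 alpha subunits of voltage-gated channels 2 were called lower, the sodium channel Scn8a (-0.74, adjusted p = 0.0403) and the potassium channel Kcna1 (-0.63, adjusted p = 0.0445), and the list's median was -0.36 (5.13% called). All 14 tested GABA receptor subunits were below 0 (median -0.32), with Gabbr2, of the metabotropic receptor, called (-0.41, adjusted p = 0.0446; 7.14% of the list). Of 29 monoamine and acetylcholine receptors, Htr4 (-1.22, adjusted p = 0.0450) and Chrm3 (-0.72, adjusted p = 0.0493) were called lower (6.90%). No glutamate receptor subunit of 25 passed, the lowest p being for Grin2b (-0.78, adjusted p = 0.0503) and Grin2a (-0.61, adjusted p = 0.0803), while 8 had an unadjusted p under 0.05. Of 55 clustered protocadherins, Pcdhb2 (-2.48, adjusted p = 0.0446) and Pcdhb19 (-1.32, adjusted p = 0.0450) were called lower (3.64%), and reads of these similar genes may be shared. After the length and GC correction the medians were -0.11 for the channels and -0.085 for the protocadherins, whose median gene lengths were 3816 and 4428 bases. Over all annotated genes, 65 of the 1513 longest (3710 bases or more) were called lower. With the correction 0 channel, 0 glutamate receptor, 1 presynaptic, 1 monoamine and acetylcholine receptor, 1 protocadherin and 2 GABA receptor genes passed. Without mutant replicate 1 at 5 months 15 presynaptic, 16 channel, 7 GABA receptor, 7 glutamate receptor, 5 monoamine and acetylcholine receptor and 5 protocadherin genes passed, and 5 channel genes passed without mutant replicate 2 at 15 months. With the covariate Sv2c alone of the 8 passed. Without any 1 of the 15-month wild types 0 channel, receptor and protocadherin genes passed.

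**Figure D4:**
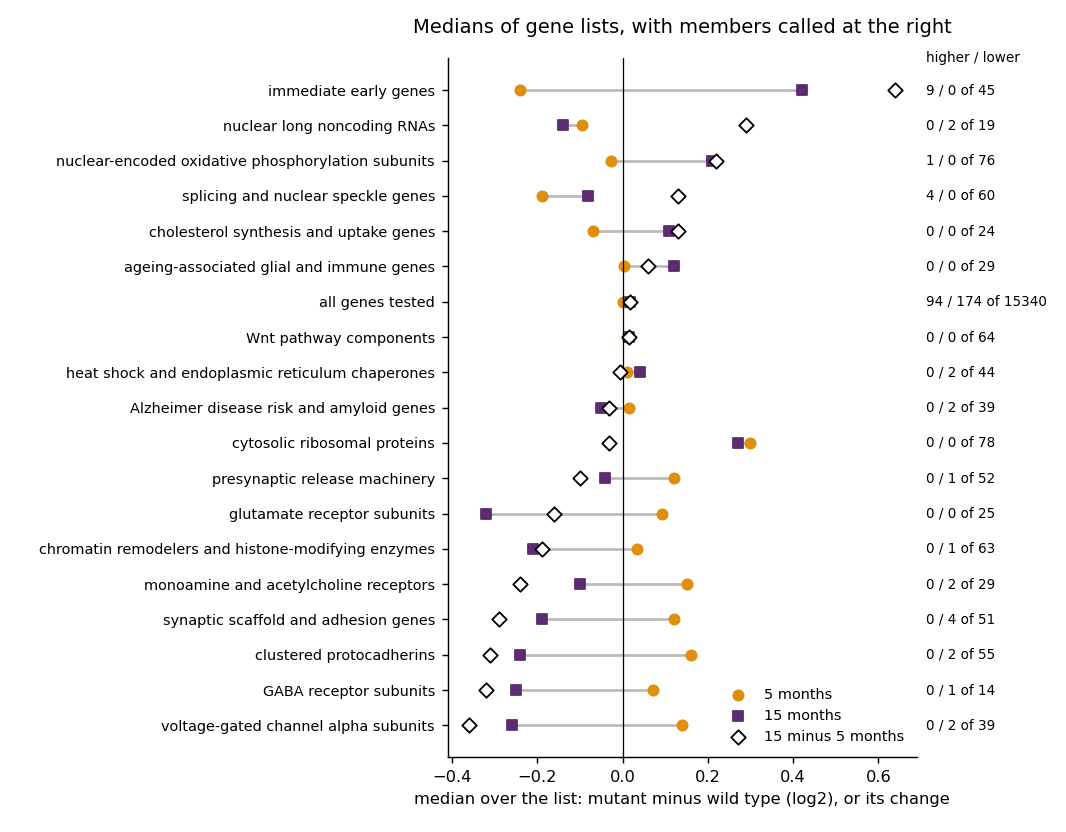
For each gene list, the median mutant minus wild type difference at 5 months (circles), at 15 months (squares) and the median of the difference between ages (diamonds), all in log2, with the members called higher and lower of those tested at the right. Immediate early genes have the highest median difference, 0.64, and voltage-gated channels the lowest, -0.36.

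Of 60 splicing and nuclear speckle genes 4 were called, all higher (6.67%, against 0.613% of all genes): Ccnl1 and Ccnl2, cyclins of splicing kinases, the splicing factor Srsf2 and the kinase Clk1. Ccnl1 had 615, 665, 646 and 620 in the 5-month wild types, 373, 409 and 387 in the 5-month mutants, 614, 695 and 551 in the 15-month wild types and 670, 713 and 631 in the 15-month mutants. Mutants were lower at 5 months without overlap, and the genotypes overlapped at 15 months. The difference was 0.83 (SE 0.13, adjusted p = 0.0131), and those of Ccnl2, Srsf2 and Clk1 were 0.63 (adjusted p = 0.0268), 0.44 (adjusted p = 0.0435) and 0.66 (adjusted p = 0.0466). With the Xist covariate 0 of the 60 passed, and after the length and GC correction 2. At 5 months 21 of the 60 passed as lower and 2 as higher (4.73% of all genes passed in either direction), and at 15 months 0 passed by limma (1.23% of all genes), a contrast of counts that does not test the difference. Between 1 and 14 of the 60 passed in the difference with a mouse left out, 14 of them without mutant replicate 1 at 5 months and 7 without mutant replicate 3 at 15 months. Malat1, an abundant RNA of nuclear speckles, went the other way, with 10021, 9333, 6827 and 8696 in the 5-month wild types, 8873, 14685 and 15356 in the 5-month mutants, 22951, 18285 and 20869 in the 15-month wild types and 9801, 11760 and 8515 in the 15-month mutants. At 15 months every mutant was below every wild type, and the difference was -1.60 (SE 0.26, adjusted p = 0.0131; -1.67 with the covariate, adjusted p = 0.0471). It and Kcnq1ot1 were called lower among 19 nuclear long noncoding RNAs (10.5%, against 1.13% of all genes), whose median of 0.29 had the opposite sign.

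Of 76 tested nuclear-encoded subunits of oxidative phosphorylation, 68 were above 0 (median 0.22). Of the 76, 1 was called (1.32%, against 0.613% of all genes called higher), Cox8a of complex IV (0.74, adjusted p = 0.0450). The number was 22 without mutant replicate 1 at 5 months, 19 without mutant replicate 3 at 15 months and 0 without any other library. After the length and GC correction the median was 0.0071. Of 78 cytosolic ribosomal proteins 0 were called by limma, with 3 at an unadjusted p under 0.05 and a median difference of -0.031. After the length and GC correction their median was -0.25 and Rpsa passed (-0.45, adjusted p = 0.0316), and without mutant replicate 1 at 5 months 1 member passed. In the fit without that correction their median effect was 0.30 at 5 months and 0.27 at 15 months. Of the 78, 44 and 11 were called higher in mutants at these ages (4.73% and 1.23% of all genes passed in either direction). Rpsa and Rpl4, those with the lowest p, had differences of -0.28 (adjusted p = 0.0963) and -0.23 (adjusted p = 0.221).

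Among genes of Alzheimer disease risk and amyloid processing, 2 of 39 were called, both lower (5.13%, against 1.13% of all genes). Sorl1, a receptor that sorts the amyloid precursor protein away from cleavage, had 6261, 6110, 5834 and 6437 in the 5-month wild types, 7149, 8294 and 7717 in the 5-month mutants, 9344, 8946 and 9363 in the 15-month wild types and 6897, 7328 and 6815 in the 15-month mutants. The genotypes separated at both ages, in opposite directions. Its difference was -0.72 (SE 0.093, adjusted p = 0.00572), between -0.77 and -0.67 with any mouse left out, -0.76 with the Xist covariate (adjusted p = 0.0279) and -0.55 after the length and GC correction (adjusted p = 0.00746). Bace1, the secretase that makes the first cut of that protein, had a difference of -0.49 (SE 0.11, adjusted p = 0.0413), called in 3 of the 13 fits with a mouse left out. The median of the 39 was -0.031, and 7 passed without mutant replicate 1 at 5 months, 4 without mutant replicate 3 at 15 months, 2 without mutant replicate 2 at 15 months and 1 without any other mouse. With the covariate Bace1 did not pass (adjusted p = 0.0959).

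Other lists had few or no calls. Hsph1 and Hspa4, large heat shock proteins that help release nucleotide from Hsp70, were called lower (-0.50, adjusted p = 0.0264, and -0.36, adjusted p = 0.0446). They were 2 of 44 chaperones (4.55%, against 1.13% of all genes), whose median was -0.0056. Arid1a, of the BAF remodeling complex, was the 1 called of 63 chromatin genes (-0.46, adjusted p = 0.0312). That was 1.59% of the list, near the 1.13% of all genes called lower, and the list's median was -0.19. Arid1a was not called with the covariate (adjusted p = 0.0706) or the correction (adjusted p = 0.18), where 0 of the 63 passed. Of the 63, 23 passed without mutant replicate 1 at 5 months, 3 and 2 without mutant replicates 3 and 2 at 15 months, 1 without wild type replicate 1 at 5 months and 0 without any other mouse. Of the chaperones, 8 passed without mutant replicate 1 at 5 months, and 0 without mutant replicate 3 at 5 months, mutant replicate 1 at 15 months or any 1 of the 15-month wild types. None of 24 cholesterol genes, 64 Wnt pathway genes or 29 glial and immune genes linked to ageing was called, with 2, 12 and 4 at an unadjusted p under 0.05 (limma). Without mutant replicate 1 at 5 months 1, 10 and 1 of them passed, and 1 ageing gene also passed without wild type replicate 1 or mutant replicate 2 at 5 months or mutant replicate 1 at 15 months. Members of low p were Mvk, a kinase of cholesterol synthesis (0.31, adjusted p = 0.191), Ctnnd2 (-0.40, adjusted p = 0.0538) and Znrf3 (-0.79, adjusted p = 0.0669), and Serpina3n (2.30, adjusted p = 0.0654) and Lgals3bp (0.79, adjusted p = 0.133).

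Markers of other cell types were read beside these. All 14 choroid plexus markers had differences above 0 (median 3.41) and none was called, with 12 at an unadjusted p under 0.05 and an adjusted p of 0.064 for the water channel Aqp1 (limma). Without wild type replicate 2 at 5 months 6 of them passed, without mutant replicate 1 at 5 months 4 and without mutant replicate 2 at 15 months 1. Their summed level was 91790, 6771, 105555 and 197965 in the 5-month wild types, 2948 to 7267 in the 5-month mutants, 4068 to 5420 in the 15-month wild types and 4268, 2976 and 37082 in the 15-month mutants. The highest called difference of all, Tmem72 at 6.25 (SE 1.37, adjusted p = 0.0408), lay in a gene with a mean below 100 at 15 months, at 193, 13.4, 109 and 271 in the 5-month wild types, 4.7 to 11.3 in the 5-month mutants, 0 to 3.34 in the 15-month wild types and 5.76, 7.44 and 57.5 in the 15-month mutants. It was named after its values were seen. The part of choroid plexus in the other results was not tested. Of 13 markers of excitatory neurons 1 was called, Dsp, which marks granule cells (-0.92), and the medians were -0.068 for excitatory neurons, 0.084 for interneurons, -0.16 for astrocytes, -0.27 for oligodendrocytes, -0.0066 for microglia and 0.14 for oligodendrocyte precursors. Of 6 ependymal markers, cells whose motile cilia use Ccdc114, 5 were above 0 (median 0.61, with -0.61 at 5 months and 0.068 at 15 months) and none was called. Their summed level was 1382 to 2293 in the 5-month wild types, 916 to 1547 in the 5-month mutants, 1173 to 1414 in the 15-month wild types and 1071 to 1565 in the 15-month mutants, and their part in the difference of Ccdc114 was not tested. All 10 oligodendrocyte markers were below 0 and none was called, but with the Xist covariate their median was -0.67 and 1 passed. Their summed level was 135034 to 214503 in the 5-month wild types and 160179 to 213851 in the 5-month mutants, which overlapped. It was 172019 to 195829 in the 15-month wild types and 130390 to 154759 in the 15-month mutants. The only other called marker was Synpo2, on the thalamus list (-1.31, adjusted p = 0.0344).

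Gene length and GC content moved with the contrast. The 93 called higher genes with an annotation had a median length of 1324 bases and 56.2% GC, and the 171 called lower genes had 2878 bases and 49.4%, against 1836 bases and 51.0% over 15130 genes. Across these genes, which are not independent replicates, the difference had a Spearman correlation of -0.39 with length and 0.26 with GC content. Among the 1513 shortest genes 22 were called higher and 0 lower, and among the 1513 longest 1 higher and 65 lower. Over all genes tested, 0.613% were called higher and 1.13% lower. After a loess correction of each library for both, 160 genes passed (48 higher and 112 lower), 106 of them among the 268, and all 264 that could be fitted kept their sign. Immediate early genes had 10 calls and a median of 0.65 after this correction. With the correction and the Xist covariate together 8 genes passed, all among the 268.

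**Figure D5:**
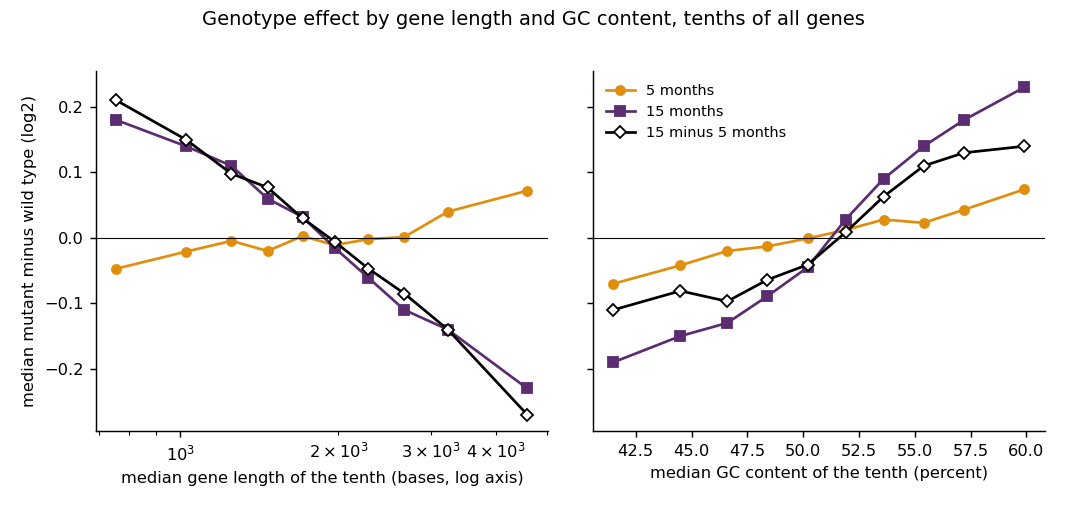
Median mutant minus wild type difference (log2) at 5 months, at 15 months and between ages, in 10 bins of annotated genes by length (left, bases on a log axis) and GC content (right, percent). The difference between ages goes from 0.21 in the shortest bin to -0.27 in the longest.

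The calls that did not rest on any single mouse were few. Of the 268 genes, 25 were called in all 13 fits with a mouse left out, 8 of them higher and 17 lower, and 18 of the 25 also passed after the length and GC correction. The 11 that also passed with the Xist covariate were Gadd45g, Npas4 and Tcea2, which were higher, and Ppm1h, Sorl1, Gatad2b, Gm2115, Ppm1l, St8sia1, Sv2c and Malat1, which were lower. Those not described so far were chosen after their values were seen. Ppm1h and Ppm1l, protein phosphatases of the PPM family, had differences of -0.68 (SE 0.086, adjusted p = 0.00553) and -1.54 (SE 0.22, adjusted p = 0.00959). Ppm1h had 1818, 1768, 1751 and 1860 in the 5-month wild types, 2367, 2284 and 2479 in the 5-month mutants, 2341, 2283 and 2415 in the 15-month wild types and 1883, 1979 and 1936 in the 15-month mutants, with no overlap at either age. Gatad2b, of the NuRD repressor complex, St8sia1, which makes the ganglioside GD3, and the noncoding RNA Gm2115 had -0.91 (adjusted p = 0.00859), -0.84 (adjusted p = 0.00994) and -1.06 (adjusted p = 0.00859). Tcea2, a transcription elongation factor, had 0.82 (adjusted p = 0.0104). Except for Ppm1l and Malat1 at 5 months, the genotypes did not overlap at either age in these 11 genes. Over all genes tested, 1.92% lacked overlap at both ages in opposite directions. The 11 were selected on these same values, so that the lack of overlap is not separate support.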

How the data were processed

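RNA sequencing of 13 hippocampi was used as deposited. Per the labels and the study's methods, the authors quantified paired-end reads against mm10 with Salmon 0.11.1 and normalized with DESeq2, so that the values they deposited are a signal, normalized counts, with 1 table per age. Reads could not be recovered as whole numbers, so no count test was run and depth is unknown. Columns were matched to mice by sample title and tables joined by symbol. The log2(value + 1) of genes with a mean of at least 10 in both tables was fitted by group means in limma 3.58.1 (trend, two-sided, Benjamini-Hochberg over 15340 genes, called at an adjusted p under 0.05) in R 4.3.3. On simulated data, 76.5% of 200 genes changed by 1.5 were recovered, with 6.13% false calls. The simulation drew genes independently with the same spread in every library, without outlying libraries or length and GC trends. Its rates therefore do not describe the calls made here. Lengths and GC content are means over a gene's GENCODE M21 transcripts, and promoters are from RefSeq (GRCm38.p6). Named genes were Tmem184b, the 12 highest and 12 lowest called differences at a mean of at least 100, and up to 5 called members per list, or the lowest p values where none was called. The members and lists were chosen with earlier results of these data known. Alternatives were other pseudocounts, filters, scalings, variance models, weights, covariates, a replicate block and each mouse left out. The 13 mitochondrially encoded genes of a list were not analysed here. A named result of 1 list is not reported here.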

Additional observations from a re-analysis of the deposited data

Results flagged for a closer look

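The genotype effects at 5 and 15 months differed, by the limma test of the difference itself, for 48 of the 59 genes named by the rule. Most were named because they were called, so that this share follows from the rule. Over all 15340 genes tested, 268 (1.75%) were called. The differences, as 15 months minus 5 months on the log2 scale, were above 0 for Fos (3.27), Ccn1 (2.16), Dusp1 (2.01), Npas4 (2.01), Btg2 (1.57), Junb (1.55), Gadd45g (1.48), Ccdc114 (1.48), Col6a1 (1.47), Hectd2os (1.42), Egr4 (1.41), Sec1 (1.28), Gadd45b (0.93), Cox8a (0.74), Ccnl1 (0.83), Ccnl2 (0.63), Srsf2 (0.44) and Clk1 (0.66). They were below 0 for Cbl (-2.64), Zbtb20 (-2.55), Grk1 (-2.42), A630089N07Rik (-2.28), Gm17644 (-2.18), Cntnap5c (-2.05), Oip5os1 (-2.02), Olfr856-ps1 (-2.02), Kcnq1ot1 (-1.99), 4930470H14Rik (-1.91), Arid5b (-1.87), Foxo3 (-1.86), Cyfip2 (-0.53), Homer2 (-0.91), Dlgap2 (-0.79), Nlgn3 (-0.52), Sv2c (-1.84), Gabbr2 (-0.41), Htr4 (-1.22), Chrm3 (-0.72), Scn8a (-0.74), Kcna1 (-0.63), Pcdhb2 (-2.48), Pcdhb19 (-1.32), Malat1 (-1.60), Arid1a (-0.46), Hsph1 (-0.50), Hspa4 (-0.36), Sorl1 (-0.72) and Bace1 (-0.49). Of these 48 genes, 8 were called with any mouse left out and 40 were not.

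In the group of 4 mice, the 5-month wild types, 1 library lay far from the others for 3 named genes by Dixon's ratio of the gap to the range. Wild type replicate 1 was the highest for Grk1 (ratio 0.831), A630089N07Rik (0.892) and Olfr856-ps1 (0.976), each above the 95% critical value. Chance marks about 1 in 20 groups, and 59 were examined.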

How the results depend on the processing

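The cause of the changes given here was not tested. Of 268 genes called in the difference (94 higher, 174 lower), the counts were 1826 (816 higher, 1010 lower) with a weight per library, 160 (48 and 112) with the GC and length correction, 29 (4 and 25) with the Xist covariate and 10 (2 and 8) at an adjusted p under 0.01. Alternatives chosen after seeing the data gave 8 (2 and 6) with the correction and covariate together and 2497 (1163 and 1334) without both mutant libraries of lowest weight, 5 months replicate 1 and 15 months replicate 3. At 15 months alone 189 genes were called, and 47 with no filter, 423 at a mean of at least 100, 292 with quantile normalization, 1019 with a spread per age, 3253 with weights, 9 with the correction, 49 with the covariate, 12 with both, 1279 without both libraries and 1 at 0.01. At 5 months alone 725 were called, and 420 with quantile normalization, 474 with a spread per age, 1156 with the correction, 1571 without both libraries and 16 at 0.01. With a mouse left out the difference gave 34 to 2111 calls (12 to 873 higher, 19 to 1238 lower), 15 months 1 to 2194 and 5 months 35 to 1278. A replicate block left 3 calls (3 higher and 0 lower: BC002163, Gadd45g and Npas4), 201 at 5 months and 3 at 15 months, and with the correction 7 (4 and 3) and 5 at 15 months. The sample titles state no pairing of mice by number. Same-number correlations were 0.068, 0.008 and -0.093 at 5 months and 0.016, 0.082 and 0.175 at 15 months, and 5 of 12 libraries correlated best with their own number. With 3 or 4 possible partners for each library, these values do not settle whether the mice were paired. Each of the 48 called named genes kept its direction in every alternative that could be fitted. Depth is unknown in normalized counts.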
